A study of Mus musculus with 14 samples.

Results

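The 10 genes described here are drivers and inhibitors of mineralization: Runx2, Spp1, Alpl, Enpp1, Ankh, Mgp, Tnfrsf11b, Slc20a1, Slc20a2 and Sost. They were chosen by name for their textbook roles and by no threshold on a measured value, with earlier results of these data known, from a table of 56941 genes, and all 10 were among the 19145 that reached a mean of 10 counts per library. The counts came from RNA-seq of aortic valve leaflets of 14 wild-type male C57BL/6 mice (C57BL/6J in the design text), 1 library per mouse. Every mouse received a hypercholesterolemic Breslow Western diet from 8 weeks of age. The 4 Ctrl mice had no other treatment. The 2 LY mice were injected intraperitoneally at 3 mg/kg with LY272015, which blocks HTR2B, a receptor for serotonin. The 4 AngII mice were infused with angiotensin II at 1000 ng/kg/min for 28 days from osmotic minipumps, and the 4 AngII+LY mice received the infusion and the antagonist together. The labels place tissue collection of the infused mice 48 hours after pump removal, whereas the methods of the study give this for a subset. For 4 dosed mice the labels give a compound number that is not LY272015, and their titles set the group. The injections are given as 2 per week in the design text and as every other day in the labels, and the design text names 4 mice per group where the LY group holds 2 here.

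Mineral forms where calcium and phosphate exceed what local inhibitors hold in solution, and pyrophosphate is the main small-molecule inhibitor. ENPP1 releases pyrophosphate from extracellular ATP, ANKH carries ATP and pyrophosphate precursors out of the cell, and the alkaline phosphatase encoded by Alpl hydrolyses pyrophosphate to phosphate. Slc20a1 and Slc20a2 encode sodium-dependent phosphate transporters. Mgp encodes matrix Gla protein and Spp1 encodes osteopontin, both secreted proteins that bind mineral, and osteopontin also signals through integrins and CD44. Runx2 is the transcription factor that commits cells to the osteoblast lineage, Tnfrsf11b encodes osteoprotegerin, the decoy receptor for RANKL, and Sost encodes sclerostin, an inhibitor of Wnt signalling. In calcific aortic valve disease these genes are followed as signs of osteogenic change of valve interstitial cells.

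Library totals ranged from 20990655 to 73128220 counts, the smallest being the library of AngII mouse 4, and between 4.00% and 25.5% of counts were mitochondrial. Ctrl mice had a mitochondrial share of 4.00% to 7.52% and every treated mouse lay above them. The LY mice were at 8.62% and 9.76%, the AngII mice spanned 9.83% to 25.5%, and with the antagonist added the share was 10.1% to 20.2%. The library of AngII mouse 4 held both the smallest total and the highest mitochondrial share, 25.5%. It also had the highest normalized counts of all 14 libraries in Runx2, Spp1, Enpp1, Ankh, Tnfrsf11b and Slc20a1. The part of depth and of the mitochondrial share in the results was not tested. Markers of valve interstitial cells took 0.482% to 1.89% of counts, and those of cardiomyocytes 0.837% to 4.32%. Of 5 listed markers of bone cells, Mepe was at 0 in all 14 libraries, Ibsp in 13, Bglap and Dmp1 in 12 each and Sp7 in 7. Bglap2 and Phex, which bone cells also express and which were not among the 5, reached 1263 and 262 normalized counts in single libraries. In whole leaflets, fewer cells of a type and less RNA per cell cannot be told apart. Values below are normalized counts, that is, counts scaled to a common library size by TMM, and the 4 mice of a group are given in the order of their replicate numbers.

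The members differed widely in level in Ctrl valves when counts were set per kilobase of exon, the scale on which genes can be compared. Mgp stood at 64821 ± 30415 (SD, n = 4) normalized counts per kb, rank 19 of 19043 genes. Sost followed at 1567 ± 2833, an average carried by 1 mouse, and Ankh at 529 ± 78.0. Spp1, Slc20a2, Tnfrsf11b and Slc20a1 lay close together, at 283 ± 202, 247 ± 90.3, 221 ± 99.5 and 213 ± 64.3 normalized counts per kb, and these neighbours did not differ beyond their spread. Enpp1 at 131 ± 55.3 and Alpl at 122 ± 95.7 did not differ beyond it either. Runx2 was the lowest member, at 3.92 ± 0.997 normalized counts per kb and rank 17901 of 19043 genes, and its raw counts were between 13 and 107 per library.

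**Figure D1:**
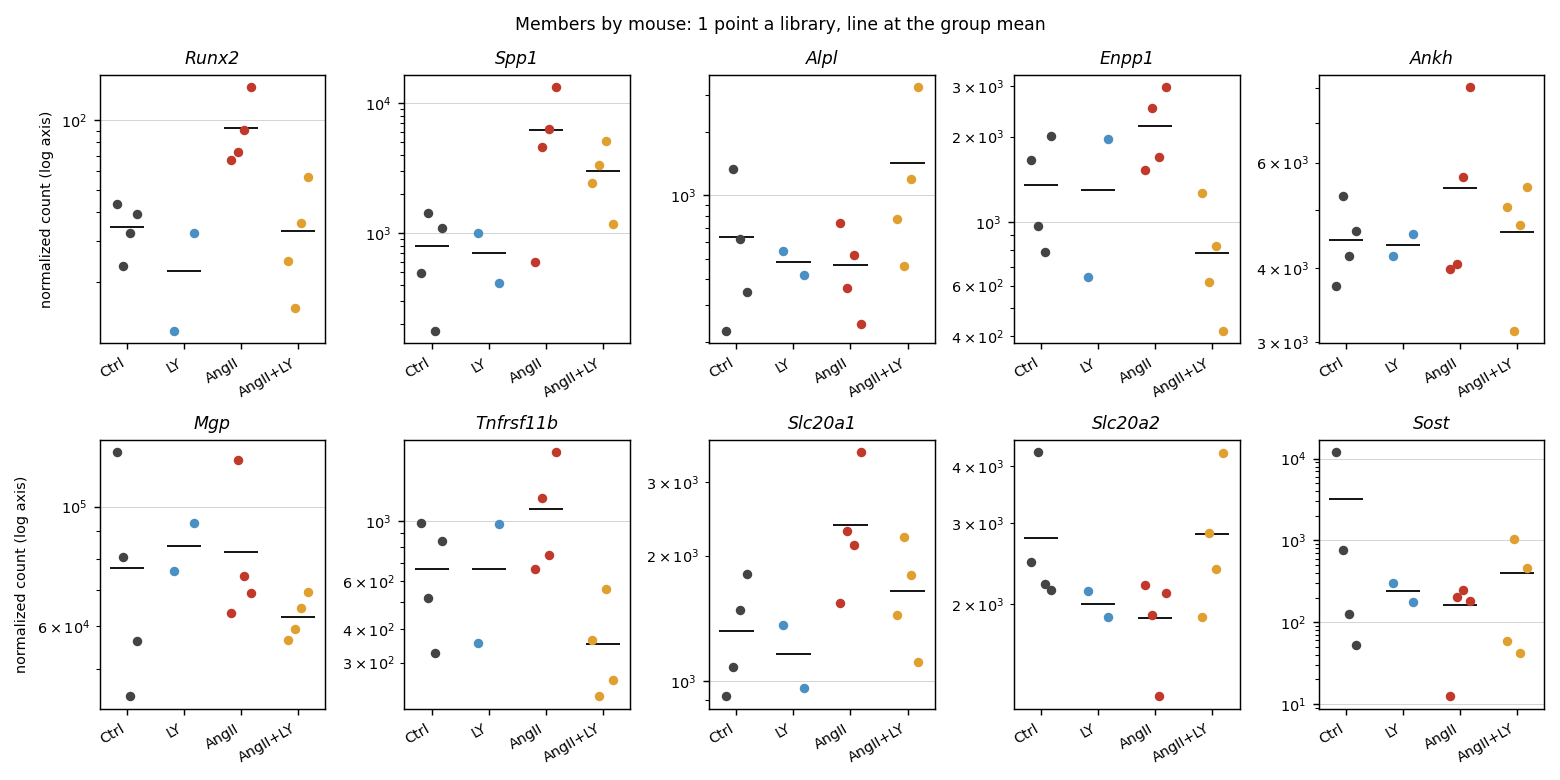
Normalized counts of the 10 members (vertical log axis) in each of the 14 libraries by group, 1 point per mouse, with a line at the group mean. The 4 AngII points of Runx2 lie above all others of that gene, the AngII+LY points of Enpp1 and Tnfrsf11b lie below every AngII point, and 1 Ctrl point of Sost, at 12039, stands far above the rest.

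The question of the infusion comparison was how the mineralization genes of the leaflet stood after angiotensin II. Spp1, Runx2 and Slc20a1 were higher in AngII than in Ctrl valves, by 7.72-fold, 2.65-fold and 1.79-fold, and Sost was 20.2-fold lower, a difference that came from 1 Ctrl mouse. Alpl, Enpp1, Ankh, Mgp, Tnfrsf11b and Slc20a2 were closer to Ctrl, between 1.49-fold lower and 1.65-fold higher. No member passed the test, which was a Benjamini-Hochberg adjusted p under 0.05 by edgeR's quasi-likelihood method with an absolute log2 fold change above 0.5. None of all 19145 genes passed it either (0%). At an unadjusted p under 0.05, 4 of the 10 members were found, 3 of them higher and 1 lower, beside 25.2% of all genes (13.4% higher and 11.7% lower). The Wald test of DESeq2 called 3 of 10 members, Spp1, Slc20a1 and Sost, beside 13.9% of all genes. The median log2 fold change of the members was 0.49, against -0.06 over all genes tested.

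Runx2 (ENSMUSG00000039153, GRCm39 chr17:44806874-45125684, minus strand) had normalized counts of 43.4, 23.3, 32.4 and 39.5 in Ctrl mice and of 67.2, 72.9, 90.1 and 139 in AngII mice. Every AngII mouse lay above every Ctrl mouse. This was a log2 fold change of 1.41 ± 0.60 (SE), with an edgeR adjusted p of 0.168. The exact 2-sided permutation p was 0.0286, the smallest that 4 mice against 4 allow and the value of every gene without overlap. Runx2 was the only member without overlap in this comparison, beside 15% of all genes without overlap and 7.46% in the higher direction. Without 1 of 5 mice (Ctrl 2, 3 or 4, AngII 3 or 4) its unadjusted p exceeded 0.05, with log2 fold changes from 1.14 to 1.53 over the 8 fits that left out a mouse. DESeq2 gave Runx2 no adjusted p, since its mean count was under that tool's own filter. Of its exons, 4.10% overlap the opposite-strand gene Supt3, whose log2 fold change was -0.24 ± 0.29, and whether reads were counted by strand was not given in the sources used here.

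Factors of the Runx family bind the core TGTGGT, which reads as ACCACA on the other strand, so the stretch of 250 bases before each RefSeq transcription start was searched for these letters on both strands. The RefSeq promoter table (GRCm38.p6) held 10 such windows for 7 members, with none for Mgp, Tnfrsf11b or Slc20a2. The core was found in 4 of the 10 windows, and 14% of all 32851 windows of this length hold it. All 4 matches are shown, each as 30 bases, 5′ to 3′ in the direction of the gene, with the core in capitals. They were placed on GRCm39 by exact match. The core begins 80 bases before the start of Runx2 (chr17:45125577-45125606, minus strand), 128 before 1 of the 2 starts of Spp1 (chr5:104582837-104582866, plus strand), 144 before that of Enpp1 (chr10:24588184-24588213, minus strand) and 77 before 1 of the 2 starts of Slc20a1 (chr2:129040604-129040633, plus strand).
Runx2: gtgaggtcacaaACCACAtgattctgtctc
Spp1: tttttttttttaACCACAaaaccagaggag
Enpp1: cactctttgcagACCACAcagcgattccag
Slc20a1: gcccgaccagccTGTGGTtgcgtcacatcg
The windows of Alpl, Ankh and Sost and the other windows of Spp1 and Slc20a1 did not hold these letters. The matching windows of Spp1 and Slc20a1 lie wholly within annotated exons of the same gene, and 170 of the 250 bases of the Runx2 window do. A match is a description of the letters and no measure of binding.

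Spp1 (ENSMUSG00000029304, chr5:104582165-104589235, plus strand) had the highest fold change of the members. Its normalized counts were 492, 1444, 177 and 1100.1 in Ctrl mice and 599, 4602, 6311 and 13364 in AngII mice. AngII mouse 1 lay within the Ctrl range and the other 3 lay above it. The groups differed by 2.95 ± 0.80 on the log2 scale, with an edgeR adjusted p of 0.0632 and a DESeq2 adjusted p of 0.0053. Its unadjusted p stayed under 0.05 in each of the 8 fits that left out a mouse, with log2 fold changes from 2.25 (without AngII mouse 4) to 3.39. Without AngII mouse 1 it passed edgeR's test, at an adjusted p of 0.0251. Macrophages also make osteopontin, and their 9 markers took 0.0546% to 0.213% of counts in Ctrl and 0.0460% to 0.0690% in AngII mice. Of these markers 7 of 9 were lower in AngII mice, 4 with an unadjusted p under 0.05. Pearson's r between Spp1 and the macrophage share was -0.40 over 14 libraries (Spearman's rho = -0.35). The part of macrophages in the Spp1 values was not tested.

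Osteopontin is bound by CD44 and by integrin chains, and these were read as its partners. Of the 5 receptor genes, Cd44, Itgav, Itgb1 and Itgb3 had an unadjusted p under 0.05 in the higher direction, none passed edgeR's test, and DESeq2 called 3. Over all genes these shares were 13.4% for the higher direction and 13.9% by DESeq2. DESeq2 gave Itgb3 no p-value, so it could not call that gene. The median log2 fold change of the 5 was 0.93. Cd44 had 5491, 3647, 3678 and 7059 normalized counts in Ctrl and 8317, 12871, 9854 and 27242 in AngII mice, with 1.55 ± 0.43 as log2 fold change (edgeR adjusted p = 0.0664). Itgav, the integrin alpha-V chain, had 4915, 4150.4, 4974 and 7300.2 in Ctrl and 7859, 9965, 11137 and 11647 in AngII mice, with 0.93 ± 0.24 as log2 fold change (edgeR adjusted p = 0.0601). Neither gene overlapped between the groups, and Itgav was 0.60 after correction for GC content. Itgb3, the integrin beta-3 chain, was carried by AngII mouse 4 at 32106 normalized counts, since the other AngII mice had 3801 to 4689 and Ctrl mouse 1 had 4802. Itgb5 was the receptor gene whose mean was lower in AngII mice, with a log2 fold change of -0.73 ± 0.47. Ctrl mouse 1 had 25638 normalized counts of Itgb5, against 4615 to 10148 in the other Ctrl mice and 5551 to 11717 in AngII mice. AngII mouse 4 stood highest of all libraries in Cd44, Itgav, Itgb1 and Itgb3.

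**Figure D2:**
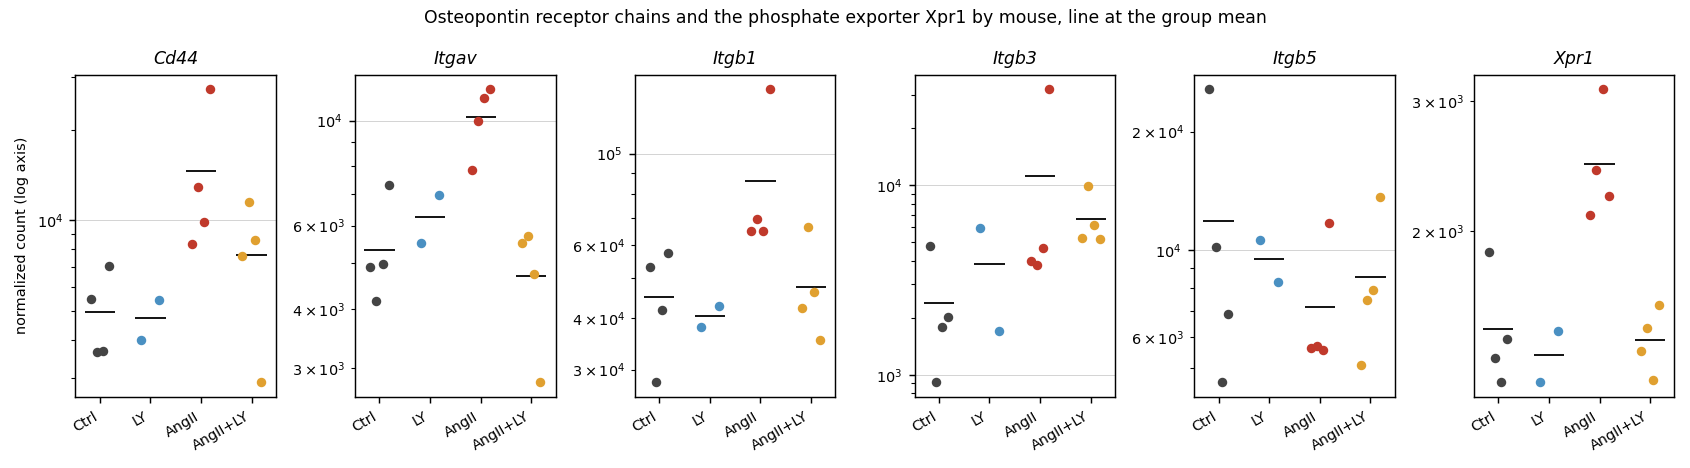
Normalized counts (vertical log axis) of the osteopontin receptor genes Cd44, Itgav, Itgb1, Itgb3 and Itgb5 and of the phosphate exporter gene Xpr1, 1 point per mouse, with a line at the group mean. The AngII points of Itgav and Xpr1 lie above every Ctrl, LY and AngII+LY point, and the mean of Itgb3 in AngII mice is drawn up by 1 mouse.

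The phosphate transporters stood in opposite directions. Slc20a1 (ENSMUSG00000027397, chr2:129040256-129053536, plus strand) had 919.7, 1082, 1482 and 1803 normalized counts in Ctrl and 1542, 2289, 2121 and 3540.5 in AngII mice. The ranges overlapped through AngII mouse 1. The groups differed by 0.84 ± 0.30 on the log2 scale, with an edgeR adjusted p of 0.108 and a DESeq2 adjusted p of 0.0333. Without AngII mouse 4 it was 0.59 and its unadjusted p exceeded 0.05. Exons of Slc20a1 overlap the opposite-strand transcript Gm56350 over 13% of their length, and Gm56350 had a log2 fold change of 0.71 ± 0.37. Slc20a2 (ENSMUSG00000037656, chr8:22966111-23059686, plus strand) had 2476, 4295, 2211 and 2147 in Ctrl and 2202, 1895, 1257 and 2118 in AngII mice. It differed by -0.58 ± 0.29 on the log2 scale (edgeR adjusted p = 0.224), and without Ctrl mouse 2 it was -0.29. Exons of Slc20a2 overlap the opposite-strand gene Smim19 over 7.53% of their length. Smim19 had a log2 fold change of 0.32 ± 0.19.

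Within a mouse, the log2 ratio of Slc20a1 to Slc20a2 was -1.06 ± 0.79 (SD, n = 4) in Ctrl, 0.31 ± 0.60 in AngII and -0.77 ± 0.78 in AngII+LY mice. AngII mice 2, 3 and 4, at 0.27, 0.75 and 0.74, had the highest of the 14 log2 ratios. AngII mouse 1, at -0.51, lay among the Ctrl mice. The ratio is not corrected for exon length, which is 6191 bases for Slc20a1 and 11271 for Slc20a2. Equal counts are therefore not equal levels. Per kilobase of exon, Slc20a1 stood above Slc20a2 in Ctrl mice 3 and 4 too, at 239 against 196 and 291 against 190. It stood below Slc20a2 in Ctrl mice 1 and 2, at 149 against 220 and 175 against 381. Xpr1, which encodes the phosphate exporter, was higher in AngII mice as well. It had 1871, 1347, 1249 and 1428 normalized counts in Ctrl and 2106, 2421, 3115 and 2230.2 in AngII mice, without overlap, with 0.74 ± 0.18 as log2 fold change (edgeR adjusted p = 0.0584, DESeq2 adjusted p = 0.0026) and 0.38 after correction for GC content.

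The pyrophosphate genes did not separate AngII from Ctrl mice. Enpp1 (ENSMUSG00000037370, chr10:24513812-24588057, minus strand) had 1652, 969.7, 785 and 2003 normalized counts in Ctrl and 1522, 2515, 1697 and 2991 in AngII mice. It differed by 0.69 ± 0.42 on the log2 scale (edgeR adjusted p = 0.322). Alpl (ENSMUSG00000028766, chr4:137469039-137524102, minus strand) had 226, 1335, 618 and 346 in Ctrl and 743, 363, 519 and 245 in AngII mice. It differed by -0.43 ± 0.61 on the log2 scale (edgeR adjusted p = 0.704), and it was 0.24 without Ctrl mouse 2 and 0.055 after correction for GC content. Ankh (ENSMUSG00000022265, chr15:27466558-27598709, plus strand) ranged from 3733 to 5278 in Ctrl and from 3985 to 8037 in AngII mice, with a log2 fold change of 0.29 ± 0.24 that was 0.040 without AngII mouse 4. Of the 8 other tested genes of phosphate and pyrophosphate handling, Xpr1 and Phex had an unadjusted p under 0.05, in opposite directions. The remaining 6 had log2 fold changes from -1.14 ± 0.92 (Phospho1, a phosphatase of matrix vesicles) to 0.52 ± 0.27 (Entpd1, which breaks down extracellular ATP), with Nt5e, which forms adenosine from AMP, at -0.36 ± 0.41. Abcc6, the ATP release transporter of liver and kidney, was at 25.0 normalized counts in Ctrl mouse 2 and at 2.15 or less in every other library, and was not tested.

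Mgp (ENSMUSG00000030218, chr6:136849433-136852821, minus strand) had 126148, 80732, 44518 and 56372 normalized counts in Ctrl and 63455, 122028, 74436 and 69089 in AngII mice, which gave 0.10 ± 0.30 as log2 fold change. The groups overlapped throughout. Gas6, another vitamin K-dependent Gla protein, was lower in AngII mice without overlap, at 26102 to 38142 in Ctrl and 7931 to 23133 in AngII mice, with -0.97 ± 0.30 as log2 fold change (edgeR adjusted p = 0.0845, DESeq2 adjusted p = 0.0132) and -0.54 after correction for GC content. Of the 6 tested genes among circulating inhibitors and Gla carboxylation, it was the only one with an unadjusted p under 0.05. Tnfrsf11b (ENSMUSG00000063727, chr15:54114015-54142075, minus strand) had 985, 517, 326 and 841 in Ctrl and 667, 1213, 749.8 and 1797 in AngII mice, which gave 0.73 ± 0.45 as log2 fold change (edgeR adjusted p = 0.331), or 0.34 after correction for GC content. Its ligand Tnfsf11 (RANKL) was at 0 in 9 of 14 libraries and at most at 24.5 normalized counts, too low to test. Tnfrsf11a, the receptor RANK, had 123 to 1103 normalized counts in Ctrl and 45.7 to 539 in AngII mice.

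Sost (ENSMUSG00000001494, chr11:101853284-101857847, minus strand) had 12039, 766, 126 and 52.4 normalized counts in Ctrl and 12.4, 202, 249 and 182 in AngII mice. Ctrl mouse 1 stood far above the other 13 libraries, and 2 of the 4 Ctrl mice lay within the AngII range. On the log2 scale the difference was -4.33 ± 1.54, with an edgeR adjusted p of 0.113 and a DESeq2 adjusted p of 0.0185, and it was -0.97 without Ctrl mouse 1, where the unadjusted p exceeded 0.05. The share of counts in 5 smooth muscle markers was 0.922% in Ctrl mouse 1, and the 4 libraries with the highest share (0.131% or more) were the 4 with the highest Sost. The other 10 libraries had 0.0321% or less and 12.4 to 304 normalized counts of Sost. Over the 14 libraries Pearson's r between Sost and this share was 0.86 (Spearman's rho = 0.65), and leaving out the 2 libraries with the most extreme share gave 0.61. All 5 smooth muscle markers were lower in AngII than in Ctrl mice, each with an unadjusted p under 0.05. Ctrl mice 1 and 2, at 0.922% and 0.131%, stood above the AngII range of 0.0163% to 0.0321%. Ctrl mice 3 and 4, at 0.0231% and 0.0237%, lay within it. In the LY mice all 5 were lower than in Ctrl too, 4 with an unadjusted p under 0.05. The part of these markers in the Sost values was not tested. Among the sclerostin receptors, Lrp6 had 2129.9 to 2379 normalized counts in Ctrl and 2503 to 3369 in AngII mice, without overlap and with 0.43 ± 0.14 as log2 fold change (edgeR adjusted p = 0.098). Lrp5, at 129 to 795 in AngII mice, had a log2 fold change of -0.47 ± 0.50, and Lrp4, at 234 to 538, of 0.46 ± 0.47. Sostdc1, a relative of sclerostin, was at 0 in all 4 AngII mice and at 0 to 23.3 in Ctrl mice.

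**Figure D3:**
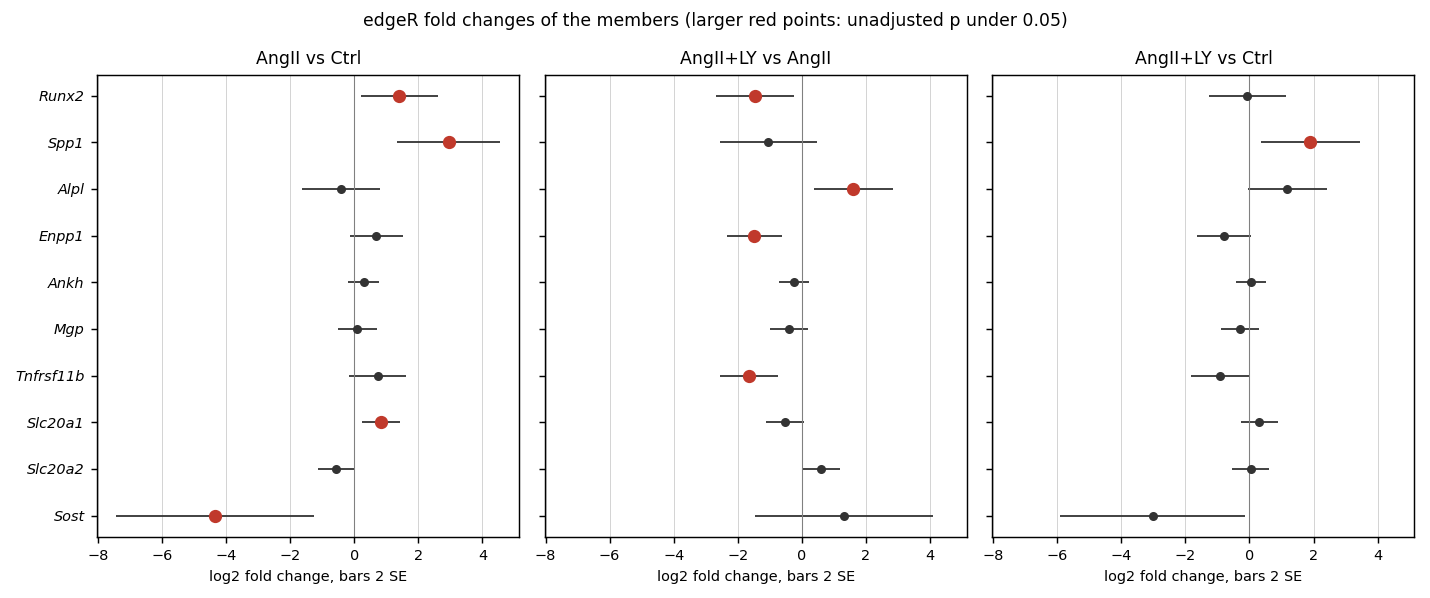
Log2 fold changes of the 10 members in edgeR (horizontal axis) for AngII against Ctrl, AngII+LY against AngII and AngII+LY against Ctrl. Bars are 2 SE, and larger red points mark an unadjusted p under 0.05. A bar clear of 0 does not by itself mean an unadjusted p under 0.05. The bars of Runx2 lie on opposite sides of 0 in the first and middle panels, at 1.41 and -1.47, and the longest bars are those of Sost.

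The comparison of AngII+LY with AngII asked how the same genes stood when HTR2B was blocked during the infusion, and it shares its 4 AngII mice with the comparison above. Tnfrsf11b, Enpp1 and Runx2 were lower in AngII+LY valves, by 3.14-fold, 2.79-fold and 2.76-fold, each without overlap between the groups, and Alpl was 3.05-fold higher. Spp1 was 2.06-fold lower and overlapped. No member passed edgeR's test, as was the case for all 19145 genes (0%), and the smallest adjusted p of a member was 0.0759. At an unadjusted p under 0.05 there were 4 members, 3 lower and 1 higher, beside 22.5% of all genes (12.4% lower and 10.1% higher). DESeq2 called 3 of 10, Alpl, Enpp1 and Tnfrsf11b, beside 10.9% of all genes. The 3 members without overlap, all lower, stand beside 11.1% of all genes without overlap and 5.66% in the lower direction. The median log2 fold change of the members was -0.46, against -0.02 over all genes tested.

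Tnfrsf11b had 667, 1213, 749.8 and 1797 normalized counts in AngII and 364, 225, 561 and 258 in AngII+LY mice. The highest AngII+LY mouse lay below the lowest AngII mouse. The log2 fold change was -1.65 ± 0.46, with an edgeR adjusted p of 0.0759 and a DESeq2 adjusted p of 0.0075. The exact 2-sided permutation p of 0.0286 is fixed by the lack of overlap and is no separate evidence. Enpp1 had 1522, 2515, 1697 and 2991 in AngII and 1265, 618, 824 and 416 in AngII+LY mice, with a log2 fold change of -1.48 ± 0.43, an edgeR adjusted p of 0.0800, a DESeq2 adjusted p of 0.0095 and the same exact p of 0.0286. Both kept an unadjusted p under 0.05 in each of the 8 fits that left out a mouse, from -1.97 to -1.32 for Tnfrsf11b and from -1.82 to -1.27 for Enpp1. Without AngII mouse 1, Tnfrsf11b passed edgeR's test, at an adjusted p of 0.0494.

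The decoy receptor and the pyrophosphate-forming enzyme rose and fell together over the pooled libraries. Over the 14 libraries Pearson's r between Enpp1 and Tnfrsf11b was 0.93 (Spearman's rho = 0.94), which made Enpp1 the gene most like Tnfrsf11b among all genes tested, and Tnfrsf11b the third most like Enpp1. The 2 genes ahead of it were Cd109 (r = 0.94) and Calu (r = 0.94). These r values pool the groups, so they include the differences between groups. The order of the mice in Enpp1 and Tnfrsf11b was the same within the LY and AngII groups. It differed within the Ctrl and AngII+LY groups. Markers of valve interstitial cells took 1.20% to 1.79% of counts in AngII mice against 0.482% to 0.889% where the antagonist was added, without overlap. All 8 of these markers were lower in AngII+LY mice, 6 with an unadjusted p under 0.05. Pearson's r with this share was 0.78 for Enpp1 and 0.73 for Tnfrsf11b over 14 libraries, and leaving out the 2 libraries with the most extreme share gave 0.66 and 0.65. With the share of cardiomyocyte markers r was -0.82 for Enpp1 and -0.78 for Tnfrsf11b, and -0.71 and -0.69 without the 2 farthest libraries. The part of either marker share in the values of Enpp1 and Tnfrsf11b was not tested.

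Alpl had 743, 363, 519 and 245 normalized counts in AngII and 773, 464, 1199 and 3289 in AngII+LY mice. AngII+LY mouse 2 lay within the AngII range and mouse 4 stood highest of all 14. On the log2 scale the difference was 1.61 ± 0.62, with an edgeR adjusted p of 0.151 and a DESeq2 adjusted p of 0.0405. Without AngII+LY mouse 4 it was 0.79 and the unadjusted p exceeded 0.05, as it did without AngII mouse 2 or 4. Cardiomyocyte markers moved with it: their share was 0.837% to 1.73% in AngII mice against 2.10% to 4.32% where the antagonist was added, without overlap, and all 10 were higher in AngII+LY mice, 7 with an unadjusted p under 0.05. The 4 libraries with the highest cardiomyocyte share, at 2.71% or more, were the 4 with the highest Alpl, and the other 10 libraries had 226 to 743 normalized counts of Alpl. Pearson's r between Alpl and this share was 0.90 over the 14 libraries (Spearman's rho = 0.88) and 0.93 without the 2 farthest libraries. The genes most like Alpl were Asrgl1 (r = 0.96) and the potassium channel genes Kcng2 (r = 0.95) and Kcnk3 (r = 0.94). The part of the cardiomyocyte share in the Alpl values was not tested.

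**Figure D4:**
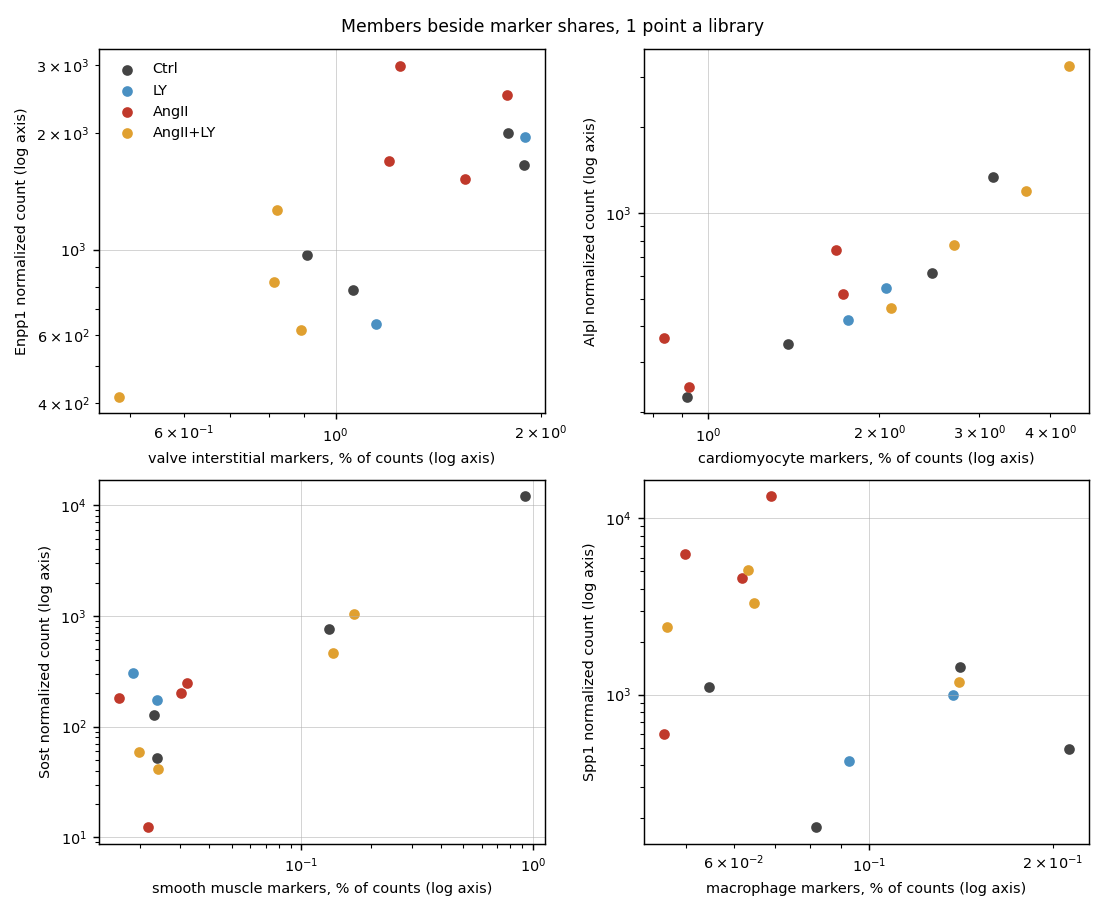
Normalized counts of Enpp1, Alpl, Sost and Spp1 (vertical log axes) against the percent of counts in markers of valve interstitial cells, cardiomyocytes, smooth muscle and macrophages (horizontal log axes), 1 point per library, coloured by group. Alpl is higher where the cardiomyocyte share is higher (r = 0.90), the 4 libraries on the right of the Sost panel are its 4 highest, and the highest Spp1 values stand at low macrophage shares.

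Enpp1 forms the pyrophosphate that the product of Alpl removes, so their ratio was read within each mouse. The log2 ratio of Enpp1 to Alpl was 1.32 ± 1.63 (SD, n = 4) in Ctrl, 0.24 and 2.21 in the 2 LY mice, 2.28 ± 1.14 in AngII and -0.60 ± 1.67 in AngII+LY mice. AngII mice stood at 1.03, 2.79, 1.71 and 3.61 and AngII+LY mice at 0.71, 0.41, -0.54 and -2.98, so that these 2 groups did not overlap, while Ctrl mice, at 2.86, -0.46, 0.35 and 2.53, spanned both. Enpp1 alone also separated AngII+LY from AngII mice, whereas Alpl overlapped, so the ratio is no separate evidence of a difference. Over the 14 libraries Enpp1 and Alpl had a Pearson's r of -0.72 (Spearman's rho = -0.69). Their r with the share of cardiomyocyte markers was -0.82 for Enpp1 and 0.90 for Alpl. With the share of valve interstitial markers r was 0.78 for Enpp1 and -0.82 for Alpl. The part of either marker share in the ratio was not tested.

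**Figure D5:**
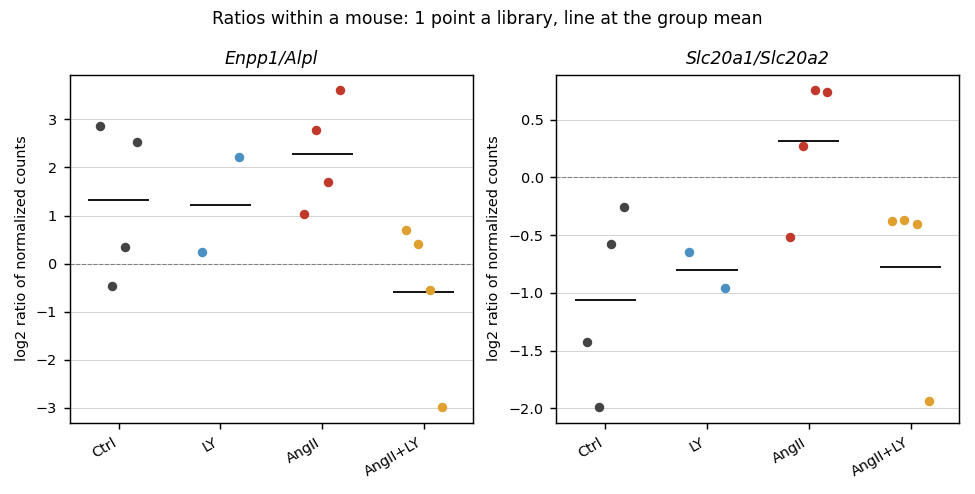
Log2 ratios of normalized counts within a mouse, Enpp1 to Alpl and Slc20a1 to Slc20a2, 1 point per library by group, with a line at the group mean and a dashed line at equal counts. The Enpp1 to Alpl log2 ratio is 1.03 or more in AngII and 0.71 or less in AngII+LY mice. The 3 highest Slc20a1 to Slc20a2 log2 ratios are those of AngII mice. Counts are not corrected for exon length, so the dashed line is not a line of equal levels.

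Runx2 had 67.2, 72.9, 90.1 and 139 normalized counts in AngII and 24.7, 15.4, 36.0 and 56.5 in AngII+LY mice, without overlap. The log2 fold change was -1.47 ± 0.61, with an edgeR adjusted p of 0.173. The exact 2-sided permutation p, fixed by the lack of overlap, was 0.0286. Its unadjusted p exceeded 0.05 without AngII mouse 4 or without AngII+LY mouse 1 or 2. All 4 AngII mice stood above every Ctrl and every AngII+LY mouse in Runx2 alone of the members, as they did in 2.43% of all genes. Of the other osteochondrogenic factors, none of Sp7, Dlx5, Msx2, Sox9 and Atf4 had an unadjusted p under 0.05 in either comparison. After correction for GC content Atf4, a factor of the stress response and of osteoblasts, was 0.56 in AngII against Ctrl mice with an unadjusted p under 0.05. Sox9, the chondrogenic factor, had a log2 fold change of -0.48 ± 0.31 against Ctrl and of -0.39 ± 0.31 for AngII+LY against AngII.

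Spp1 had 599, 4602, 6311 and 13364 normalized counts in AngII and 2414, 3333, 5117 and 1174 in AngII+LY mice. The ranges overlapped, the log2 fold change was -1.05 ± 0.75 (edgeR adjusted p = 0.441), and it was -0.35 without AngII mouse 4 and -0.46 after correction for GC content. Of its 5 receptor genes, Itgav, Itgb1 and Cd44 had an unadjusted p under 0.05 in the lower direction, beside 12.4% of all genes, and DESeq2 called 2, beside 10.9%. After correction for GC content Cd44 was -0.55 and Itgb1 -0.48, each with an unadjusted p over 0.05. Itgav stood at 5502, 5702, 4734 and 2804 in AngII+LY mice, all below the AngII mice, with -1.12 ± 0.24 as log2 fold change (edgeR adjusted p = 0.0588, DESeq2 adjusted p = 0.0011). Itgb1, the integrin beta-1 chain, had a log2 fold change of -0.85 ± 0.31, and Cd44 one of -0.93 ± 0.42.

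Slc20a1 had 1443, 2215, 1799.6 and 1112 normalized counts in AngII+LY mice, which was -0.53 ± 0.29 against AngII on the log2 scale (edgeR adjusted p = 0.305). Slc20a2 had 1878, 2861, 2379.9 and 4273, which was 0.61 ± 0.29 (edgeR adjusted p = 0.225). Both overlapped with the AngII mice. Xpr1, at 1374, 1477, 1255 and 1589, lay below every AngII mouse, with -0.79 ± 0.18 as log2 fold change (edgeR adjusted p = 0.0588, DESeq2 adjusted p = 0.0028) and -0.42 after correction for GC content. Lrp6 lay below every AngII mouse too, at 1929 to 2362, with -0.52 ± 0.15 as log2 fold change (edgeR adjusted p = 0.0768). Ankh, at 5058, 3133, 4714 and 5471, Mgp, at 56594, 59218, 64810.4 and 69614, and Sost, at 59.0, 1031, 41.8 and 465, overlapped with AngII mice, with log2 fold changes of -0.24 ± 0.24, -0.39 ± 0.30 and 1.31 ± 1.39.

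Across the 7 pathway lists, 35 of 45 genes were high enough to test. In AngII against Ctrl mice 11 of the 35 reached an unadjusted p under 0.05 (6 in the higher and 5 in the lower direction), beside 25.2% of all genes, and in AngII+LY against AngII mice 7 did, 1 higher and 6 lower, beside 22.5%. These shares are near those of all genes. The median log2 fold change of the 35 was -0.28 and -0.18. Acp5 and Ctsk, osteoclast enzymes, were among the lower genes in AngII mice, with log2 fold changes of -1.07 ± 0.49 and -0.82 ± 0.38, and Acp5 was -0.63 after correction for GC content, with an unadjusted p over 0.05. Bglap2, an osteocalcin gene, was at 1263 normalized counts in AngII mouse 2 and at 0 to 6.20 in the other AngII mice, against 23.3 to 214 in Ctrl and 0 to 20.2 in AngII+LY mice. It had an unadjusted p under 0.05 in AngII+LY against AngII mice, a difference carried by AngII mouse 2. Phex, a phosphate-regulating endopeptidase of bone cells, was at 0 in all 4 AngII mice and at 262, 3.33, 0 and 0 in Ctrl mice.

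Set against Ctrl, which the AngII comparison shares as its control, the AngII+LY mice stood apart in 1 member at an unadjusted p under 0.05, beside 11% of all genes (4.89% higher). This was Spp1, 3.74-fold higher with 1.90 ± 0.77 as log2 fold change (edgeR adjusted p = 0.386), and its unadjusted p exceeded 0.05 without Ctrl mouse 1, Ctrl mouse 3 or AngII+LY mouse 3. No member passed edgeR's test, and DESeq2 called none, beside 1.79% of all genes. Runx2 was near its Ctrl level, with a log2 fold change of -0.06 ± 0.60, and Enpp1 and Tnfrsf11b stood below it, at -0.79 ± 0.42 and -0.92 ± 0.45. No member was without overlap, beside 8.16% of all genes.

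The 2 LY mice were compared with Ctrl for the antagonist without the infusion. In this comparison 2 mice against 4 allow no exact 2-sided permutation p below 0.133. No member had an unadjusted p under 0.05 in edgeR, beside 1.39% of all genes. None passed edgeR's test, as was so for all genes (0%), and DESeq2 called none, beside 0.11% of all genes. Slc20a2 was the only member without overlap, at 2130.5 and 1877 in LY against 2147 for the lowest Ctrl mouse. Its exact 2-sided permutation p, fixed by the lack of overlap, was 0.133. Of all genes, 12% were without overlap, with 6.41% in the lower direction. The LY mice differed from each other in Runx2 (12.3 and 32.4), Enpp1 (642 and 1954) and Tnfrsf11b (355 and 977), and in Spp1 (998 and 418). The interval of 2 SE around the log2 fold change reached from -2.13 to 0.86 for Runx2 and from -1.08 to 0.96 for Enpp1. Changes within these intervals remain possible, and the ends of the intervals are not limits set by the test.

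The difference between the effect of the antagonist with and without the infusion was tested as an interaction in the same fit. Tnfrsf11b, Slc20a2 and Enpp1 had unadjusted p-values under 0.05, beside 13.3% of all genes, and interaction terms of -1.65 ± 0.70, 1.08 ± 0.46 and -1.42 ± 0.65 on the log2 scale. The edgeR adjusted p-values were 0.345, 0.346 and 0.368, so none passed. Of the 14 fits that left out a mouse, 7, 9 and 6 kept an unadjusted p under 0.05 for Tnfrsf11b, Slc20a2 and Enpp1. Leaving out LY mouse 2 moved Tnfrsf11b to -0.74 and Enpp1 to -0.41, and leaving out LY mouse 1 moved them to -2.20 and -2.01. The interaction of Runx2 was -0.83 ± 0.94.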

How the data were processed

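Aortic valve RNA from 14 mice was sequenced by the authors, who checked reads with FastQC 0.12.1, aligned them to GRCm39 and counted them per gene with featureCounts. The deposited table is named as normalized, but its values are whole-number counts per gene, without normalization. More of its values equal 2 (13373) than 1 (10072), and the cause was not tested. The counts may thus overstate the number of independent fragments. Whether counting used strand was not given in the sources used here. The 10 members and the pathway and marker lists were chosen with earlier results of these data known. Genes were located by GENCODE vM39 (618 genes with 0.0361% of counts had no match), where Ankh is listed as Ank.

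Genes whose mean over libraries reached 10 counts were fitted in edgeR 4.0.16 (R 4.3.3) by the quasi-likelihood method at its default settings, with TMM normalization and 1 fit of the 4 groups. The design had assumed normalized values, and the test for counts was used instead. A gene passed at a Benjamini-Hochberg adjusted p under 0.05 over all genes tested and an absolute log2 fold change above 0.5. Fold changes carry a standard error (SE), and an interval of 2 SE does not mark the threshold of edgeR's test. For Slc20a2 in AngII against Ctrl mice it reached from -1.15 to -0.0034, yet edgeR's unadjusted p was 0.0638. In AngII+LY against Ctrl mice the upper ends for Tnfrsf11b and Sost were -0.022 and -0.13, with edgeR's unadjusted p at 0.0595 and 0.0553. Single values without overlap between groups were compared by exact 2-sided permutation of log2(normalized count + 1). The lack of overlap and the group sizes fix this p, so it is no separate evidence. Ratios used the same pseudocount of 1, and correlations are descriptions over 14 libraries, which share depth and tissue makeup. P-values measure the spread between these mice. No replicates were duplicates: the smallest chi-square per degree of freedom between replicates was 131. Named pathway genes were those with an unadjusted p under 0.05 in either main comparison and the direct partners of the members. A gene of the osteochondrogenic list is not reported here. Alternatives were DESeq2 1.42.0, limma 3.58.1, RLE size factors, no filter, robust and newer quasi-likelihood fits, only the groups compared, a replicate block, GC correction, and leaving out each mouse. The pipeline was tested on simulated data.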

Additional observations from a re-analysis of the deposited data

Results flagged for a closer look

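In 39 sets of 4 mice, 1 for each member or ratio in each group of 4, the highest and lowest mouse was set against the gap to its neighbour, and 3 sets held a mouse far from the others. Chance flags about 1 set in 20. Sost stood at 12039 normalized counts in Ctrl mouse 1, against 52.4 to 766 in the other Ctrl mice. Slc20a2 stood at 4295 in Ctrl mouse 2, against 2147 to 2476 in the other Ctrl mice. The log2 ratio of Slc20a1 to Slc20a2 was -1.94 in AngII+LY mouse 4, against -0.40 to -0.37 in the other AngII+LY mice.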

How the results depend on the processing

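No member passed edgeR's test in any comparison with RLE size factors, no filter on low counts, robust or newer quasi-likelihood fits, limma, only the groups compared or GC correction. DESeq2 called 3 members in AngII against Ctrl and 3 in AngII+LY against AngII mice, and the cause of this difference between the tools was not tested. Over all genes, DESeq2 called 2663 in AngII against Ctrl, 2082 in AngII+LY against AngII, 343 in AngII+LY against Ctrl, 21 in LY against Ctrl and 203 in the interaction. Without a filter the first 3 of these counts were 123, 1 and 13, with the newer quasi-likelihood fit (added after the data were seen) 555, 176 and 0, and with limma 241, 437 and 0. Members with an unadjusted p under 0.05 in AngII+LY against Ctrl numbered 3 with DESeq2, 5 without a filter, 2 with the newer fit and 2 with GC correction, in LY against Ctrl 1 with DESeq2 and 1 without a filter, and in the interaction 5, 5 and, with GC correction, 1. The cause was not tested. GC correction turned the log2 fold change of Alpl in AngII against Ctrl mice to 0.055 and that of Runx2 in AngII+LY against Ctrl to 0.044, both near 0, and moved Sost in AngII against Ctrl mice to -3.67. Across 19043 genes, Spearman's rho between fold change and GC content was -0.54 in AngII against Ctrl and 0.43 in AngII+LY against AngII, and GC correction moved other printed values by over 1.5 times: Tnfrsf11b to 0.34, Ankh to 0.46, Mgp to 0.19, Slc20a2 to -0.35, Xpr1 to 0.38, Gas6 to -0.54, Itgav to 0.60, Entpd1 to 0.19, Itgb5 to -0.14, Acp5 to -0.63, Lrp4 to 0.96 and Lrp5 to -0.10 in the first comparison, and Spp1 to -0.46, Sost to 0.76, Xpr1 to -0.42, Cd44 to -0.55 and Itgb1 to -0.48 in the second.

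Leaving out each mouse in turn gave 0 to 1726 genes and 0 to 1 members called in AngII against Ctrl, 0 to 842 and 0 to 1 in AngII+LY against AngII, 0 to 3 and 0 in AngII+LY against Ctrl, and 0 in LY against Ctrl and in the interaction. Without AngII mouse 1 the counts were 1726 and 842 genes, without Ctrl mouse 4 799 and without AngII mouse 2 360 in AngII against Ctrl. Members with an unadjusted p under 0.05 numbered 2 to 4, 2 to 7, 0 to 3, 0 to 1 and 0 to 5 in the 5 comparisons in this order. Log2 fold changes that changed sign were those of Alpl (-0.74 to 0.24) and Mgp (-0.16 to 0.44) in AngII against Ctrl, Ankh in AngII+LY against AngII (-0.37 to 0.0060), and Runx2 (-0.45 to 0.20), Ankh (-0.049 to 0.21), Mgp (-0.49 to 0.047), Slc20a2 (-0.23 to 0.32) and Sost (-4.07 to 0.34) in AngII+LY against Ctrl. In LY against Ctrl they were Spp1 (-0.94 to 0.31), Alpl (-0.67 to 0.28), Enpp1 (-1.07 to 0.53), Ankh (-0.10 to 0.067), Mgp (-0.051 to 0.48), Tnfrsf11b (-0.91 to 0.55) and Slc20a1 (-0.45 to 0.042), and in the interaction Runx2 (-1.37 to 0.021) and Ankh (-0.34 to 0.032).

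Replicate numbers did not pair the mice: same-numbered mice of different groups had correlations of their deviations from -0.30 to 0.26, with 5 of 18 above 0.1. With the replicate block 2 members had an unadjusted p under 0.05 in AngII against Ctrl, 3 in AngII+LY against AngII and 1 in the interaction, and 0 genes were called in each comparison. With the block and GC correction together 1 gene was called in AngII+LY against Ctrl, 1 member had an unadjusted p under 0.05 in the interaction, Alpl was 0.096 in AngII against Ctrl and Sost -0.055 in AngII+LY against AngII mice. The planned legacy setting of the quasi-likelihood method is the default and gave the values reported. The log2 ratio of Enpp1 to Alpl in AngII+LY mice was -0.60 with a pseudocount of 1 or 10. The low counts of Runx2 (13 to 107) limit its precision.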

Other observations

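The genes whose pattern over the 14 libraries was most like Mgp were Col3a1, a fibrillar collagen gene (Pearson's r = 0.93), Oca2, a melanosome gene (r = 0.90), and Bgn, the proteoglycan biglycan (r = 0.89). Mgp and the share of counts in 4 melanocyte markers had an r of 0.87, and leaving out the 2 libraries with the most extreme share gave 0.70. The genes most like Spp1 were AA467197 (r = 0.94), Pbp2 (r = 0.90) and Gm36582 (r = 0.90), and the member most like it was Slc20a1 (r = 0.76). Those most like Sost were Scube3 (r = 0.89), Ntrk3 (r = 0.87) and Lmod1, a smooth muscle gene (r = 0.87). Those most like Runx2 were Exosc9, Pdzrn3 and Map2k1 (r = 0.89 each). Those most like Slc20a1 were Myct1 (r = 0.93), Nek7 (r = 0.92) and Rhpn2 (r = 0.92).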
